A study of Mus musculus with 6 samples.

Results

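Across the libraries 10 genes were followed. These are the inhibitory receptor genes Pdcd1, Ctla4, Lag3, Havcr2, Tigit, Btla and Cd160, the gene Cd200 for a surface ligand that restrains myeloid cells, Izumo1r for a folate receptor family protein, and Tox for a transcription factor. They were chosen by symbol, and all 10 had a row among the 19390 gene symbols and enough counts to be among the 12810 genes tested. RNA was sequenced from γδ T cells, lymphocytes whose antigen receptor is made of a γ and a δ chain, after a flow cytometry sort from mouse spleen at 6 weeks of age. The 3 KO-labelled libraries were taken to be from USF3-f/f; CD2-cre mice and the 3 WT-labelled libraries from USF3-f/f mice, so both labels carry floxed Usf3 alleles and the KO label alone carries the Cre transgene. CD2-cre is driven by the promoter of a gene shared by lymphoid cells, so deletion is not limited to γδ T cells, and any effect of the transgene cannot be told apart from that of the deletion. The labels do not say whether the libraries of a label came from separate animals, so p-values measure the spread between these libraries, which may be technical.

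Inhibitory receptors are surface proteins that T cells put up after activation and that dampen signals from the T cell receptor. PD-1 (Pdcd1), TIGIT and BTLA recruit phosphatases through tyrosine motifs in their tails, CTLA-4 competes with CD28 for CD80 and CD86, LAG-3 binds MHC class II, and TIM-3 (Havcr2) binds galectin-9 among other ligands. TOX is a nuclear protein of the HMG-box family that, in chronically stimulated CD8 T cells, sustains the state called exhaustion, in which several of these receptors are held high together.

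Totals were 34644862 to 35806402 counts in KO-labelled libraries and 34914065 to 35613092 counts in WT-labelled libraries. Usf3, the targeted gene, had 2532, 2360 and 2348 counts in KO-labelled replicates 1, 2 and 3, against 2499, 2527 and 2593 in WT-labelled ones. KO replicate 1 lay within the WT range and the gene did not pass the test (log2 fold change -0.076, edgeR adjusted p = 0.261). Which exons are floxed is not stated in the labels, so this whole-gene count does not check the labels, and all directions below are those of libraries by their label. The CD3 genes Cd3d, Cd3e and Cd3g lay between 256 and 388 CPM in all 6 libraries, where CPM is the count scaled to the library size after TMM normalisation. All 3 were called lower in KO-labelled libraries (edgeR adjusted p from 5.91e-05 for Cd3g to 0.0364 for Cd3e). Of the 8 tested γδ T cell markers 5 were lower and 0 higher, beside 10.1% lower and 7.23% higher over all tested genes. Blk was among the lower ones (log2 fold change -1.15, edgeR adjusted p = 0.00133). Cd247 (0.034, edgeR adjusted p = 0.593) and Zbtb16 (1.07, edgeR adjusted p = 0.0997) went the other way and did not pass. The part of this in the results below was not tested. Of the γδ receptor chain genes, Trdc, Tcrg-C1, Tcrg-C2 and Tcrg-C4 were listed and had no row. Of the αβ receptor chain genes, Trac, Trbc1 and Trbc2 had none either. These genes therefore cannot tell γδ from αβ T cells here. Cd4, the co-receptor of helper T cells, chosen after its values were seen, was between 0.281 and 0.740 CPM. From the same list Cd8a was at 65.6 to 89.7 CPM and Cd8b1 at 17.3 to 18.5 CPM. The B cell marker sum over 10 genes ran from 5.95 to 7.91 CPM in KO-labelled and from 6.88 to 7.27 CPM in WT-labelled libraries. Monocyte and macrophage markers summed to 759 to 853 CPM in KO-labelled and 739 to 785 CPM in WT-labelled libraries. Of 2 tested, Ccr2 was called higher and Cd68 lower, beside 7.23% higher and 10.1% lower over all tested genes. The part of other cells was not tested.

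The checkpoint genes split into opposed sets. Ctla4, Pdcd1 and Cd160, the receptor genes with the highest levels per length in WT-labelled cells, fell in KO-labelled cells. Tigit, Tox, Cd200 and Izumo1r, all of lower level, rose. Lag3, Havcr2 and Btla did not pass the test. By edgeR's quasi-likelihood test at an adjusted p under 0.05, 4 of the 10 genes were called higher, beside 7.23% of all tested genes, and 3 were called lower, beside 10.1% of all tested genes (17.3% in either direction). The 10 genes had been picked with earlier results of these data known, so these counts describe them only. Their median log2 fold change was 0.0092, beside 0.0014 over all tested genes. In bulk RNA, fewer cells that carry a transcript and less of it per cell cannot be told apart.

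**Figure D1:**
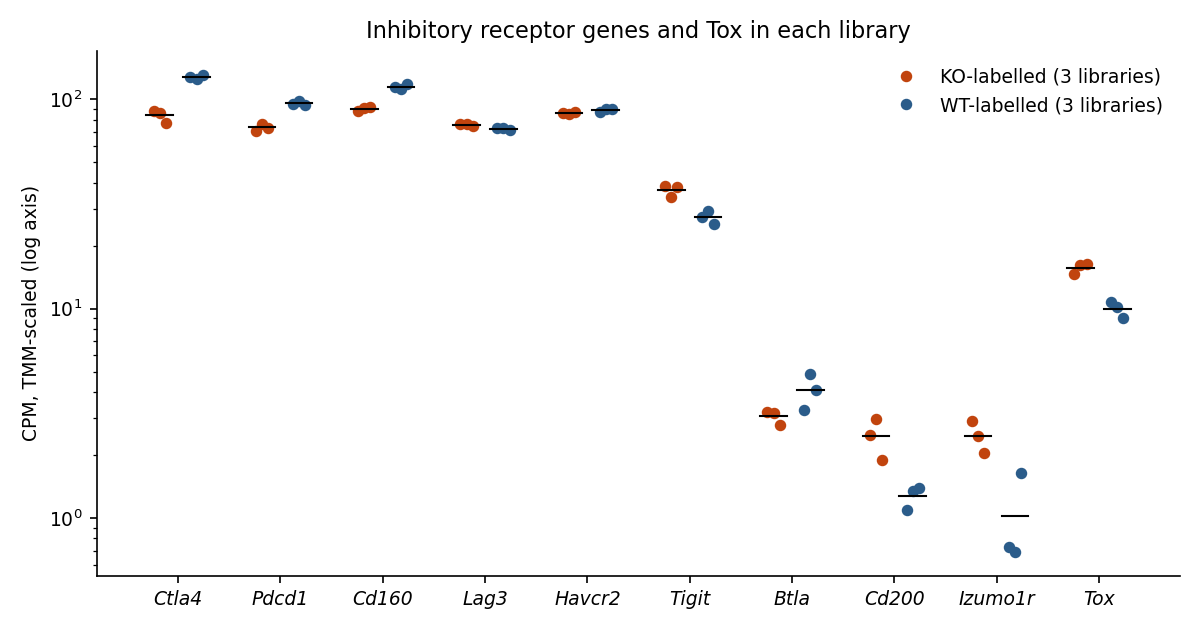
TMM-scaled CPM on a log axis for the 10 genes, with 1 point per library, KO-labelled left and WT-labelled right for each gene, and a line at the mean of 3 libraries. The points of the labels are apart for every gene except Havcr2, and Izumo1r in WT replicate 3, at 1.65 CPM, stands above the other WT-labelled libraries.

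Ctla4 had the largest fall of the 10 genes. It stood at 88.3, 86.2 and 77.2 CPM in KO-labelled replicates 1, 2 and 3, against 128, 125 and 131 CPM in WT-labelled ones. The highest KO-labelled library was well under the lowest WT-labelled one, and KO replicate 3 was the lowest of all. The log2 fold change was -0.61 ± 0.043 (SE; edgeR adjusted p = 2.63e-10), which is 0.655 of the WT level with a 95% interval from 0.615 to 0.696.

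Pdcd1 was at 70.9, 76.4 and 73.0 CPM in KO-labelled libraries, against 94.8, 97.9 and 94.2 CPM in WT-labelled libraries. The labels did not overlap, and the libraries of each label lay close together. Its log2 fold change was -0.38 ± 0.040 (SE; edgeR adjusted p = 1.61e-07), or 0.768 of the WT level (95% interval 0.726 to 0.813). Cd160, which encodes a GPI-anchored receptor of T and NK cells, was at 87.5, 91.1 and 92.2 CPM in KO-labelled libraries, against 114, 112 and 119 CPM in WT-labelled libraries. It was lower in all 3 KO-labelled libraries than in any WT-labelled one, with a log2 fold change of -0.35 ± 0.037 (SE; edgeR adjusted p = 2.03e-07). Of 6 listed NK cell markers 3 were tested, with 0 higher and 1 lower, beside 7.23% higher and 10.1% lower over all tested genes. The sum of the 6 was 86.3 to 89.6 CPM in KO-labelled and 86.0 to 91.9 CPM in WT-labelled libraries. The lower one was Ncr1, at 0.683 to 1.21 CPM in KO-labelled and 1.39 to 2.33 CPM in WT-labelled libraries (log2 fold change -0.93, edgeR adjusted p = 0.0398). Klrb1c made up most of the sum and did not pass (log2 fold change 0.049, edgeR adjusted p = 0.506), nor did Klre1 (-0.22, edgeR adjusted p = 0.118), while Klra4, Klra8 and Klra9 were at or near 0. Their part in the falls of Cd160 and Klrc1 was not tested.

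Tigit, a receptor for CD155 (Pvr) that competes with the activating receptor CD226, rose. Its levels were 38.5, 34.2 and 38.0 CPM in KO-labelled libraries, against 27.4, 29.3 and 25.4 CPM in WT-labelled libraries. Every KO-labelled library was above every WT-labelled one. The log2 fold change was 0.43 ± 0.063 (SE; edgeR adjusted p = 2.36e-05), a 1.35-fold rise with a 95% interval from 1.23 to 1.48. Tox was at 14.6, 16.1 and 16.4 CPM in KO-labelled libraries, against 10.8, 10.2 and 9.02 CPM in WT-labelled libraries. These did not overlap either, and the log2 fold change was 0.65 ± 0.091 (SE; edgeR adjusted p = 1.17e-05), 1.57-fold with a 95% interval from 1.38 to 1.79.

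Izumo1r and Cd200 had the largest rises of the 10 genes, at few counts. Izumo1r, whose product is known as folate receptor 4 on regulatory T cells of mice and as the egg receptor Juno, had 102, 88 and 71 counts in KO-labelled libraries, against 26, 24 and 58 in WT-labelled libraries. The labels did not overlap, but WT replicate 3 had more than the sum of WT replicates 1 and 2. The log2 fold change was 1.27 ± 0.315 (SE; edgeR adjusted p = 0.00603). When WT replicate 3 was left out it was 1.79 (edgeR adjusted p = 0.000742). It was 1.07 when WT replicate 1 was left out, 1.05 for WT replicate 2 and 1.13 for KO replicate 1, and these calls were near the threshold (edgeR adjusted p = 0.0474, 0.0475 and 0.0447). Cd200 had 88, 107 and 66 counts in KO-labelled libraries, against 39, 47 and 49 in WT-labelled libraries. The nearest to the WT-labelled libraries was KO replicate 3. Its log2 fold change of 0.94 ± 0.262 (SE; edgeR adjusted p = 0.0136) rested on single libraries. The call was lost when KO replicate 2 was left out (0.78, edgeR adjusted p = 0.0547), and likewise when WT replicate 1 was (0.84, edgeR adjusted p = 0.0633).

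Lag3 was at 76.5, 76.3 and 74.4 CPM in KO-labelled libraries, against 72.8, 73.1 and 71.3 CPM in WT-labelled libraries. All KO-labelled values were the higher ones, yet the difference was small and did not pass (log2 fold change 0.065, 95% interval -0.015 to 0.15, edgeR adjusted p = 0.289). Havcr2 was at 86.1, 85.4 and 86.8 CPM in KO-labelled libraries, against 86.7, 90.3 and 89.9 CPM in WT-labelled libraries. The labels overlapped, and the interval of its log2 fold change ran from -0.12 to 0.030 (edgeR adjusted p = 0.446). Btla, whose product binds HVEM, had 113, 114 and 97 counts in KO-labelled libraries, against 117, 169 and 143 in WT-labelled libraries. The lowest WT-labelled library stood just above the KO-labelled ones. Its log2 fold change of -0.41 had a wide interval, from -0.79 to -0.025, and missed the threshold (edgeR adjusted p = 0.145). The 3 libraries of 1 label lay wholly to one side of the other in 9 of the 10 genes, beside 32.1% of all tested genes.

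**Figure D2:**
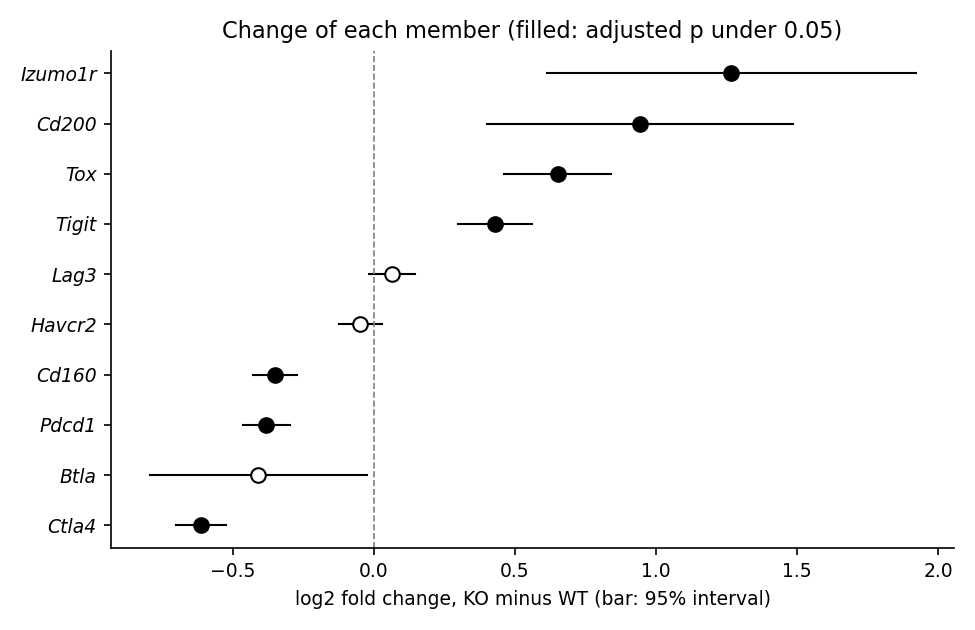
Log2 fold change of the 10 genes, KO minus WT, with 95% intervals of the quasi-likelihood fit; filled points have an adjusted p under 0.05. Izumo1r, Cd200, Tox and Tigit are above 0 and Cd160, Pdcd1 and Ctla4 below it, while the intervals of Lag3 and Havcr2 span 0.

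The promoter windows of the genes with the largest fall and the largest rise are shown with that of Btla because USF factors, the family to which the product of the targeted gene is related, bind the E-box CACGTG. The windows hold 250 bases before and 50 after a start site and are from RefSeq on GRCm38.p6, a build other than that of the counts, and 8 of the 10 genes matched. Both strands were searched. CACGTG was present in the Btla window alone of the 8 genes, and in 7.15% of all 32851 promoter windows. The wider E-box CANNTG, which includes CACGTG, was present in 6 of the 8 genes, with both higher and lower genes among them. Cd160 has 2 windows, and per window CANNTG was in 7 of the 9 windows of these genes, beside 72.3% of all windows. Capitals mark each CANNTG. Ctla4 is at chr1:60908775-60909074 on the plus strand, Izumo1r at chr9:14903718-14904017 on the minus strand and Btla at chr16:45224087-45224386 on the plus strand, each written in the direction of the gene.
Ctla4: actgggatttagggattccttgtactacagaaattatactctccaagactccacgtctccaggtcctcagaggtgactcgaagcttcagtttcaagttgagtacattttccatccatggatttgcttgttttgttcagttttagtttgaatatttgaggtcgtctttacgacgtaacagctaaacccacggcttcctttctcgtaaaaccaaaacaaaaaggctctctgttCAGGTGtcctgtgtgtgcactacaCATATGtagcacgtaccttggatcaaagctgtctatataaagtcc
Izumo1r: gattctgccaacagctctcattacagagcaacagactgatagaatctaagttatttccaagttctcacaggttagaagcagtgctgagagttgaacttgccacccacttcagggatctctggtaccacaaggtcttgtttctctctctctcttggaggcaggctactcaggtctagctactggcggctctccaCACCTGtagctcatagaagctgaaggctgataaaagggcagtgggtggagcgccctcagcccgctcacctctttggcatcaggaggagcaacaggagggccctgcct
Btla: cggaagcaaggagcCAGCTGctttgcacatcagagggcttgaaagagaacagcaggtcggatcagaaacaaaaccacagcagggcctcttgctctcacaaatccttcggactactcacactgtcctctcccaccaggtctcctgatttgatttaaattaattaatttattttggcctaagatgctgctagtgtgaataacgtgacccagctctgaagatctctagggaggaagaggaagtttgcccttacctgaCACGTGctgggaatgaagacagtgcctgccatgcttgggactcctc

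The CACGTG of Btla lies just after the start site, and Btla is a gene that did not pass the test. Ctla4 has 2 CANNTG and Izumo1r has 1. The core GGAAA of NFAT sites was present in 5 of the 8 genes, among them Ctla4, Pdcd1, Tigit and Izumo1r. Per window it was in 5 of 9, beside 61.3% of all windows. The AP-1 motif TGANTCA was present in Havcr2 alone and in 7.81% of all windows. A match describes these letters and is no sign of binding.

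Levels of different genes were compared per length, as deposited FPKM. In KO-labelled cells Ctla4 came first at 39.4 ± 2.77 FPKM, with Pdcd1 at 38.1 ± 1.33 and Lag3 at 37.9 ± 0.579 FPKM (SD, n = 3 each), and the libraries of these neighbours overlapped. Cd160 at 34.3 and Havcr2 at 31.7 FPKM followed without overlap. In WT-labelled cells Ctla4 was at 59.8 ± 1.46, Pdcd1 at 49.3 ± 1.04, Cd160 at 43.4 ± 1.15, Lag3 at 36.0 ± 0.558 and Havcr2 at 32.5 ± 0.646 FPKM (SD, n = 3 each), with no overlap between neighbours. The range of these 5 receptor genes was thus narrower in KO-labelled cells, and Lag3 stood above Cd160 there and below it in WT-labelled cells.

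The remaining genes lay lower. Tigit was at 17.3 ± 1.15 FPKM in KO-labelled and 12.8 ± 0.913 FPKM in WT-labelled cells, and Tox at 3.46 ± 0.207 FPKM in KO-labelled and 2.19 ± 0.206 FPKM in WT-labelled cells (SD, n = 3 each). In KO-labelled cells Cd200 (1.04 FPKM), Izumo1r (0.755) and Btla (0.631) came last, and the libraries of neighbours overlapped. In WT-labelled cells Btla (0.833) came before Cd200 (0.537) and Izumo1r (0.311), and Cd200 overlapped with Izumo1r. As a share of the summed FPKM of the 10 genes, Ctla4 held 19.3% in KO-labelled and 25.2% in WT-labelled cells, while Tigit held 8.47% in KO-labelled and 5.37% in WT-labelled cells. Summed over the 10 genes, the level was 465 to 474 CPM in KO-labelled libraries, against 540 to 547 CPM in WT-labelled libraries.

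**Figure D3:**
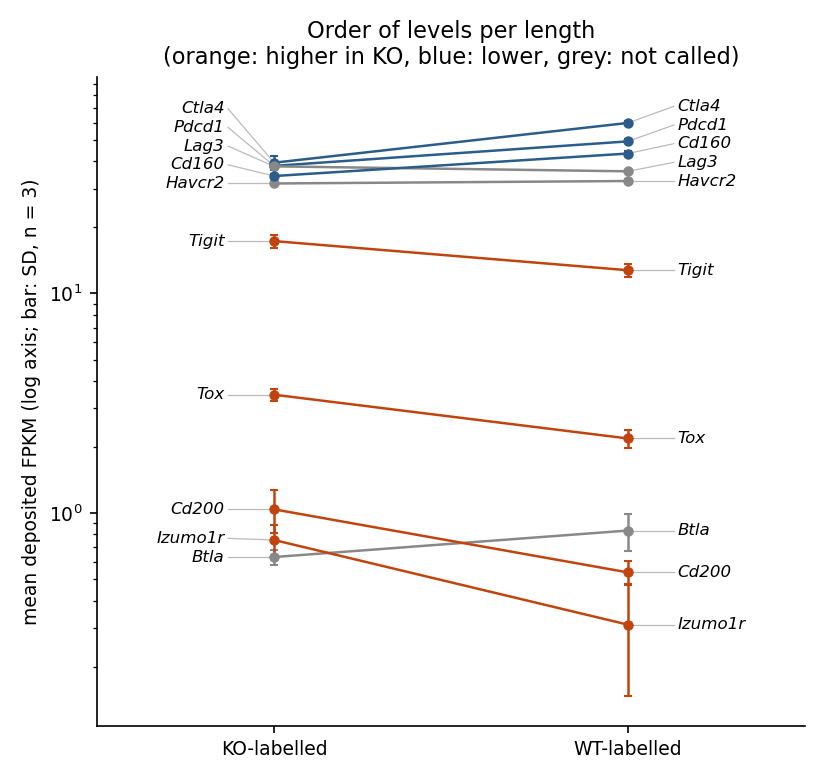
Mean deposited FPKM of each gene on a log axis, KO-labelled left and WT-labelled right, with SD bars (n = 3). Orange lines are genes called higher in KO-labelled cells, blue lines lower and grey lines not called, and the 3 blue lines lie between 34.3 and 39.4 FPKM in KO-labelled cells, against 43.4 to 59.8 FPKM in WT-labelled cells.

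The spread between libraries differed among the genes. For Havcr2 the coefficient of variation of CPM was 0.801% in KO-labelled and 2.22% in WT-labelled libraries, where counting error alone gives 1.82% in KO-labelled and 1.79% in WT-labelled libraries. For Izumo1r it was 17.4% in KO-labelled and 53.0% in WT-labelled libraries, where counting alone gives 10.7% in KO-labelled and 16.7% in WT-labelled libraries. Ctla4 varied by 7.03% in KO-labelled libraries against a counting error of 1.84%, and by 2.55% in WT-labelled libraries against 1.49%. The exons of 2 of the 10 genes overlap those of another gene in GENCODE M21. Antisense Gm11802 shares 3.42% of the exonic bases of Tox and was too low to be tested. Pdzk1 shares 2.57% of those of Cd160 on the opposite strand and did not pass the test (edgeR adjusted p = 0.524).

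Ligands and receptors on the other side of these molecules were measured in the same cells. Of 15 listed, 13 had a row and 11 were tested, of which 0 were called higher and 3 lower, beside 7.23% higher and 10.1% lower over all tested genes, with a median log2 fold change of -0.059. With so few genes the count itself is read no further. Cd274, which encodes PD-L1, the ligand of PD-1, fell together with Pdcd1. It was at 69.2, 70.5 and 69.9 CPM in KO-labelled libraries, against 109, 112 and 106 CPM in WT-labelled libraries, a log2 fold change of -0.64 ± 0.037 (SE; edgeR adjusted p = 1.01e-11). Pdcd1lg2, the gene of the second PD-1 ligand and chosen after its values were seen, was at 13.7 to 14.8 CPM in KO-labelled and 13.4 to 15.8 CPM in WT-labelled libraries and did not pass (edgeR adjusted p = 0.708).

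HVEM, the shared ligand of BTLA and CD160, is encoded by Tnfrsf14. It was at 54.0, 54.2 and 50.8 CPM in KO-labelled libraries, against 61.3, 63.4 and 58.8 CPM in WT-labelled libraries, and fell by 0.21 on the log2 scale (edgeR adjusted p = 0.00230). Tnfsf14, the gene of LIGHT, a further HVEM ligand, averaged 9.99 ± 1.01 CPM in KO-labelled and 13.5 ± 1.37 CPM in WT-labelled libraries (SD, n = 3 each) without overlap, and fell by 0.44 (edgeR adjusted p = 0.00285). So Cd160, Tnfrsf14 and Tnfsf14 of this receptor group were each lower, and Btla missed the threshold. Lgals9, the gene of galectin-9, fell by 0.15 on the log2 scale (edgeR adjusted p = 0.00907). The ligand gene Pvr, at 22.2 to 25.5 CPM in KO-labelled and 20.6 to 24.5 CPM in WT-labelled libraries, did not pass beside the rise of Tigit (edgeR adjusted p = 0.706), nor did the CD200 receptor gene Cd200r1 (edgeR adjusted p = 0.805). Both were chosen after their values were seen.

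A further 6 genes were listed whose products share ligands with these molecules or belong to the CD28 family. Of these 1 was called higher and 1, Tnfsf14, lower, beside 17.3% of all tested genes in either direction. Their median log2 fold change was -0.042. Icos, the gene of a costimulatory receptor of the CD28 family, was at 124, 119 and 116 CPM in KO-labelled libraries, against 109, 104 and 104 CPM in WT-labelled libraries, and rose by 0.18 ± 0.036 (SE; edgeR adjusted p = 0.000861). Cd28, Ctla4 and Icos are neighbours on chromosome 1, in that order. Ctla4 fell, Icos rose, and Cd28, chosen after its values were seen, did not pass (log2 fold change -0.019, edgeR adjusted p = 0.764). Btla and Cd200 are also neighbours, on chromosome 16, and their log2 fold changes were -0.41 and 0.94. Lag3 lies next to Cd4 on chromosome 6.

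Ratios of counts within a library do not depend on how libraries are scaled, and 4 were computed, chosen after the values were seen. There were 0.353, 0.347 and 0.341 Ctla4 counts per Cd28 count in KO-labelled libraries, against 0.528, 0.507 and 0.536 in WT-labelled libraries. Per Icos count, Ctla4 averaged 0.699 ± 0.031 in KO-labelled and 1.21 ± 0.045 in WT-labelled libraries (SD, n = 3 each). Tigit averaged 0.687 ± 0.102 counts per count of Cd226, the activating receptor that competes for CD155, in KO-labelled and 0.468 ± 0.044 in WT-labelled libraries (SD, n = 3 each). For Tox over its family member Tox4 the ratio was 0.114 ± 0.0062 in KO-labelled and 0.0695 ± 0.0073 in WT-labelled libraries (SD, n = 3 each). The labels did not overlap in any of the 4 ratios. This largely follows from the choice, since the labels did not overlap for Ctla4, Tigit or Tox themselves. A two-sided exact permutation test of each log2 ratio gave p = 0.1, also after adjustment over the 4, which is the smallest that 3 libraries against 3 allow.

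**Figure D4:**
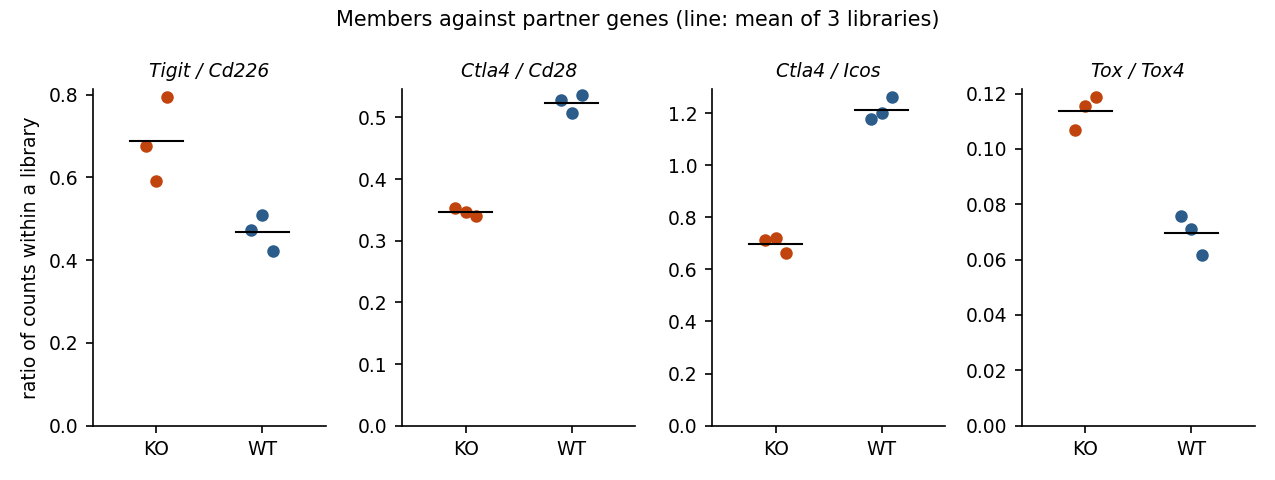
Counts of Tigit per Cd226 count, of Ctla4 per Cd28 and per Icos count, and of Tox per Tox4 count, from 0 on the vertical axes, with 1 point per library and lines at the means; KO-labelled libraries are left and WT-labelled ones right. The Tigit and Tox ratios are higher and both Ctla4 ratios lower in all 3 KO-labelled libraries.

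Other inhibitory receptors were lower in 7 and higher in 1 of the 10 tested of 13 listed, beside 10.1% lower and 7.23% higher over all tested genes. Their median log2 fold change was -0.26. This list too was chosen with earlier results known, so the count describes its genes only. Lilrb4a, an inhibitory receptor gene with tyrosine motifs, was at 85.6, 85.3 and 80.6 CPM in KO-labelled libraries, against 129, 131 and 129 CPM in WT-labelled libraries, a log2 fold change of -0.63 ± 0.036 (SE; edgeR adjusted p = 8.91e-12). Cd72, the gene of a C-type lectin best known from B cells, fell by 0.79 on the log2 scale. Klrc1, which encodes the NKG2A chain, fell by 0.55, and Cd244a, a SLAM family receptor gene, by 0.31. Their edgeR adjusted p ran from 8.08e-07 for Cd72 to 1.16e-05 for Cd244a. Vsir, the gene of VISTA, Lair1 and Adora2a were the other lower genes. The 1 higher gene was Cd5, which tunes T cell receptor signals, at 22.7, 23.6 and 23.0 CPM in KO-labelled libraries, against 17.5, 17.3 and 16.0 CPM in WT-labelled libraries (log2 fold change 0.45, edgeR adjusted p = 4.02e-05). These 4 were named after their values were seen.

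**Figure D5:**
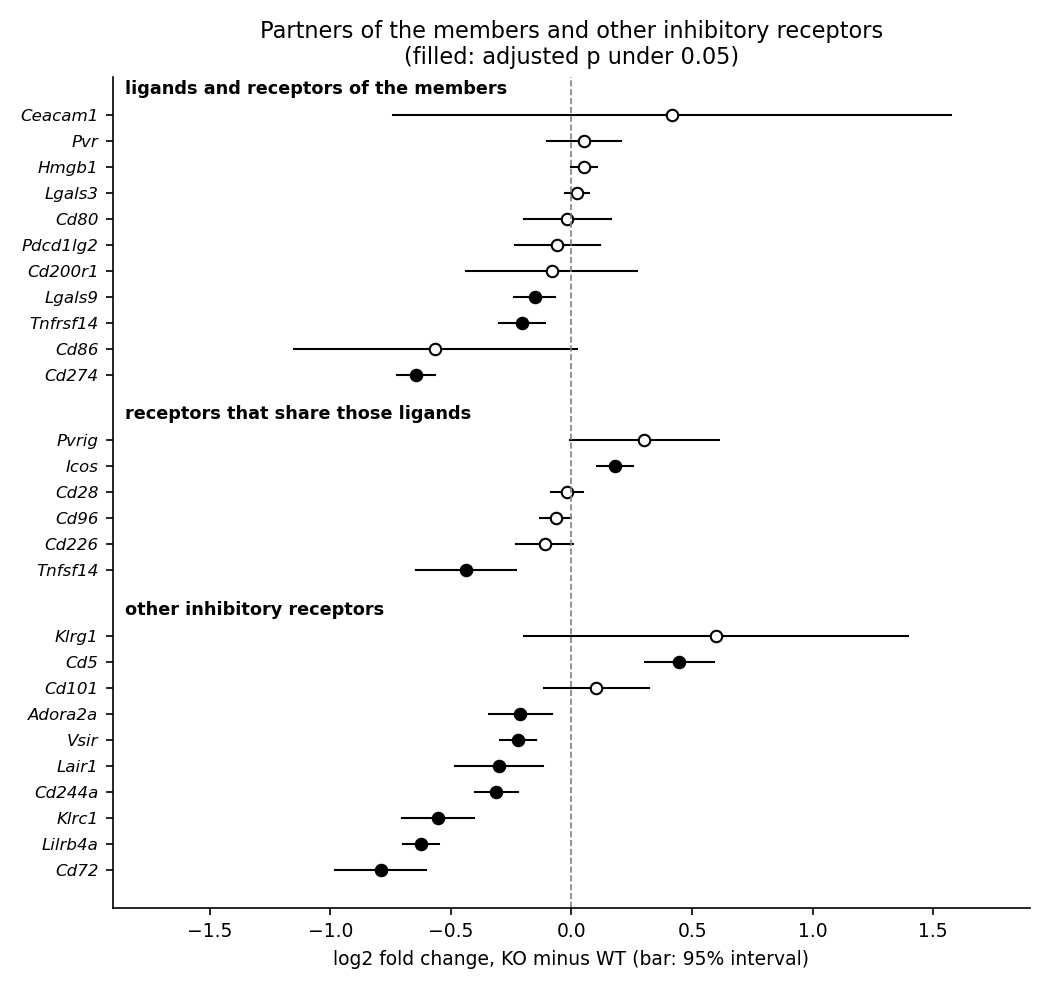
Log2 fold change, KO minus WT, with 95% intervals. Shown are tested ligands and receptors of the checkpoint genes, genes that share those ligands or are of the CD28 family, and other inhibitory receptors. Filled points have an adjusted p under 0.05. Cd274, Cd72 and Lilrb4a lie near or beyond -0.6, and Icos and Cd5 are the filled points above 0.

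Signalling and trafficking partners of the receptors moved both ways, with 4 of 21 higher and 5 lower, beside 7.23% higher and 10.1% lower over all tested genes. Their median log2 fold change was 0.018, and the list was likewise chosen with earlier results known. Ptpn6, the gene of the phosphatase SHP-1 that binds inhibitory tyrosine motifs, was at 254, 251 and 258 CPM in KO-labelled libraries, against 219, 219 and 217 CPM in WT-labelled libraries, and rose by 0.22 ± 0.027 (SE; edgeR adjusted p = 1.42e-06). Ptpn11, the gene of SHP-2, the phosphatase best known from PD-1, was chosen after its values were seen and did not pass (log2 fold change 0.057, edgeR adjusted p = 0.270). Dgka, a diacylglycerol kinase gene that limits Ras signalling, fell by 0.63 and Pag1, the gene of a membrane adaptor that anchors the kinase CSK, by 0.35 on the log2 scale. Trat1, a T cell receptor adaptor gene linked to transport of CTLA-4, was at 1.93, 1.73 and 1.67 CPM in KO-labelled libraries, against 0.365, 0.460 and 0.541 CPM in WT-labelled libraries (log2 fold change 1.96 ± 0.331, SE, edgeR adjusted p = 0.000134). Of the genes that handle CTLA-4 inside the cell, both named after their values were seen, Lrba, which spares it from lysosomes, fell by 0.15 (edgeR adjusted p = 0.0339) and Ap2m1, which takes it up from the surface, rose by 0.098 (edgeR adjusted p = 0.0114).

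In the TOX family only Tox and Tox4 had enough counts to be tested. Tox4, Tox2 and Tox3 were chosen after their values were seen. Tox4 was at 137, 140 and 138 CPM in KO-labelled libraries, against 142, 143 and 147 CPM in WT-labelled libraries, and did not pass (log2 fold change -0.060, edgeR adjusted p = 0.217). Tox2 and Tox3 stood at or under 0.197 CPM in every library. Calcineurin and NFAT, which drive Tox in stimulated CD8 T cells, had 1 of 9 genes higher and 1 lower, with a median log2 fold change of -0.0046. This count is near the 17.3% called over all tested genes and is no result about the list. Nfatc1 rose by 0.11 (edgeR adjusted p = 0.0156) and Ppp3cc, a catalytic subunit gene of calcineurin, fell by 0.14 on the log2 scale (edgeR adjusted p = 0.00207). This count of 2 was 1 without KO replicate 2, WT replicate 1 or WT replicate 3, and 4 without KO replicate 3.

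Transcription factors of exhausted T cells were lower in 9 and higher in 3 of 16, beside 10.1% lower and 7.23% higher over all tested genes. Their median log2 fold change was -0.16. The list was chosen with earlier results of these data known, so the count describes these genes only. Nr4a1, a nuclear receptor gene induced by T cell receptor signals, was at 40.5, 36.8 and 36.3 CPM in KO-labelled libraries, against 104, 108 and 106 CPM in WT-labelled libraries. Its log2 fold change was -1.49 ± 0.046 (SE, edgeR adjusted p = 1.63e-16). The family members Nr4a2 (0.019, edgeR adjusted p = 0.853) and Nr4a3 (-0.097, edgeR adjusted p = 0.358), chosen after their values were seen, did not pass. Eomes, the T-box factor gene, rose as Tox did. It was at 503, 494 and 501 CPM in KO-labelled libraries, against 306, 311 and 303 CPM in WT-labelled libraries (log2 fold change 0.70 ± 0.024, SE, edgeR adjusted p = 6.79e-16). The related Tbx21 and the stem-like factor gene Tcf7 fell by 0.51 and 0.32 on the log2 scale (edgeR adjusted p = 1.95e-07 and 1.90e-08).

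Markers of regulatory T cells, which carry CTLA-4, TIGIT and folate receptor 4 in mice, were measured beside these genes. Of 5 tested of 6 listed, 1 was higher and 2 lower, beside 7.23% higher and 10.1% lower over all tested genes. So small a count is read no further. The summed level of the 6 was 460 to 465 CPM in KO-labelled libraries, against 542 to 552 CPM in WT-labelled libraries, most of it from Il2ra. Foxp3, the defining factor gene, was at 8.76, 8.10 and 8.08 CPM in KO-labelled libraries, against 11.3, 12.3 and 13.3 CPM in WT-labelled libraries, and fell by 0.57 on the log2 scale (edgeR adjusted p = 0.000181). Il2ra fell by 0.32 (edgeR adjusted p = 8.09e-10). Lrrc32 went the other way, at 31.2, 34.1 and 31.8 CPM in KO-labelled libraries, against 27.9, 27.4 and 27.5 CPM in WT-labelled libraries. It rose by 0.23 (edgeR adjusted p = 0.00610), and Ikzf4 and Tnfrsf18 did not pass. Ctla4 and Foxp3 were both lower and Izumo1r and Tigit higher. The part of such cells in these results was not tested. Cd8a was at 85.1 to 89.7 CPM in KO-labelled and 65.6 to 66.6 CPM in WT-labelled libraries and rose by 0.40 on the log2 scale (edgeR adjusted p = 7.51e-08), while Cd8b1 stood at 17.3 to 18.3 CPM in KO-labelled and 17.5 to 18.5 CPM in WT-labelled libraries and did not pass (edgeR adjusted p = 0.884). Markers of follicular helper T cells, which carry PD-1 in number, were called in 0 of 2 tested genes, beside 17.3% of all tested genes. At an unadjusted p under 0.05 by edgeR there were also 0, and with 2 tested genes neither count is read further. The listed markers summed to 3.64 to 4.2 CPM in KO-labelled and 2.67 to 4.21 CPM in WT-labelled libraries.

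The genes with a pattern nearest to that of Tox over the 6 libraries, by Euclidean distance of centred log2 CPM, were C77080, Tent5c and Slc4a4, at distances of 0.157, 0.181 and 0.191. Tent5c encodes a poly(A) polymerase and rose by 0.71 ± 0.053 (SE; edgeR adjusted p = 6.53e-10). Nearest to Pdcd1 were Chsy1, a chondroitin synthase gene, Sptbn1, a spectrin gene, and Slc16a3, a lactate exporter gene, at distances of 0.0534, 0.0638 and 0.0647. Their log2 fold changes were -0.37, -0.35 and -0.37, beside -0.38 for Pdcd1. The distance includes the difference between the labels, so fold changes near those of Tox and Pdcd1 follow from the choice.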

How the data were processed

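RNA of 3 KO-labelled and 3 WT-labelled libraries was compared. The authors' deposited gene counts are whole numbers per symbol. The deposited FPKM equal these counts over the column total and 1 length per gene in all 19390 genes (tolerance 0.01 bp). The submitters' processing notes name fastp, HISAT2, HTSeq and GRCm39. They give no version, setting, gene annotation or strand option, so reads of a gene and its antisense partner cannot be told apart.

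Counts were fitted with edgeR 4.0.16 in R 4.3.3 (TMM, filterByExpr, glmQLFit and glmQLFTest on the label, Benjamini-Hochberg over all 12810 tested genes, called at an adjusted p under 0.05). The filter left out 0.0366% of counts. Intervals are 95% intervals of the fit. Scripts were tested on simulated counts. Pairs of libraries of a label differed beyond sampling noise (chi-square over degrees of freedom 3.22 to 6.94), so none was taken as a repeat. Alternatives were other scalings and filters, DESeq2 1.42.0, limma-voom from limma 3.58.1, the replicate number as a block, a stricter threshold, a fit without marker genes of other cells, and fits that left out a library in turn.

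The genes and lists were chosen with earlier results of these data known. Named were Usf3, the 10 genes, from each list up to 4 past the threshold by smallest p (otherwise the 1 with the smallest p), the 2 most abundant of each list of other cells, and the 3 genes nearest to Tox and Pdcd1; some named by this rule are not given here. Any gene outside this rule was picked with its values in view. Neighbours and exon overlaps come from GRCm38 annotations, used for names and order.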

Additional observations from a re-analysis of the deposited data

How the results depend on the processing

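The calls of Ctla4, Pdcd1, Cd160, Tigit, Tox and Izumo1r and the missing calls of Lag3, Havcr2 and Btla were the same under all 16 alternatives, and 0 of the 10 genes changed direction. Cd200 lost its call at an adjusted p under 0.01 (log2 fold change 0.94, edgeR adjusted p = 0.0136) and ran from 0.78 to 1.10 with 1 library left out. Izumo1r ran from 1.05 to 1.79, always called, with an adjusted p up to 0.0475. At an adjusted p under 0.01, 520 genes were higher, against 926, and 1 calcineurin or NFAT gene was called, against 2. With 1 library left out that last count ran from 1 to 4. Deviations from the label mean correlated weakly between same-numbered libraries, by 0.055, -0.022 and -0.039. KO replicate 1 correlated best with WT replicate 1, and KO replicate 2 with WT replicate 3 (0.079). Correlations this weak, among 3 libraries per label, cannot settle whether the replicate numbers pair the libraries. With the replicate number as a block, 792 genes were higher and 1177 lower, and the log2 fold changes of Cd200 and Izumo1r were 0.93 and 1.33, both called. Depth was low for Izumo1r, at a mean of 87.0 counts in KO-labelled and 36.0 in WT-labelled libraries, and for Cd200, at 87.0 counts in KO-labelled and 45.0 in WT-labelled libraries.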

Other observations

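Among effector and regulatory products that are followed with checkpoint receptors, 3 of 7 tested genes were lower and 1 higher. This stands beside 10.1% lower and 7.23% higher over all tested genes. The median log2 fold change of the 7 was -0.16, and the count of so few genes is read no further. Il10, the gene of an anti-inflammatory cytokine, was at 19.4, 20.8 and 20.2 CPM in KO-labelled libraries, against 32.7, 32.1 and 33.5 CPM in WT-labelled libraries (log2 fold change -0.70 ± 0.061, SE, edgeR adjusted p = 7.71e-09). Tnf was at 26.1, 25.3 and 23.6 CPM in KO-labelled libraries, against 39.0, 40.8 and 40.6 CPM in WT-labelled libraries, and fell by 0.68 on the log2 scale (edgeR adjusted p = 4.51e-09). Ifng, the gene of interferon-γ, rose by 0.25 (edgeR adjusted p = 5.55e-05), and Gzmb, the gene of granzyme B, fell by 0.22 on the log2 scale (edgeR adjusted p = 7.08e-10). The ectoenzyme genes Entpd1 and Nt5e, which turn extracellular ATP into adenosine and were chosen after their values were seen, did not pass (edgeR adjusted p = 0.762 and 0.119), while the adenosine receptor gene Adora2a, also chosen after its values were seen, fell by 0.21 (edgeR adjusted p = 0.0219). Il2, likewise chosen after its values were seen, was at or under 0.195 CPM in every library.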
